A study of Caenorhabditis elegans with 4 samples.

Results

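The small secreted antimicrobial peptide genes of *C. elegans* were compared between worms given rifampicin (RIF), an antibiotic that inhibits bacterial RNA polymerase, and worms given its solvent, DMSO. Genes were included by symbol, as those beginning with cnc-, fip-, fipr-, abf- or thn- and the genes nlp-24 to nlp-34, where a probe set of the array names that gene alone. This gave 40 of the 17118 genes measured, of which 10 are nlp genes, 8 are cnc genes, 13 are fip and fipr genes, 5 are abf genes and 4 are thn genes. Each gene is represented by its probe set with the highest mean value over the 4 arrays. A further 32 genes of these families in the RefSeq gene table have no probe set of their own and are not among them, including nlp-34, cnc-9, cnc-10, cnc-11, abf-6, thn-2 and most fipr genes.

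RNA of whole wild-type (N2) worms was measured on Affymetrix expression arrays, 2 for each treatment, which the titles number as biological replicates. Both groups were harvested on day 8 of adulthood from liquid culture on heat-killed *E. coli* OP50 carrying the L4440 vector, with carbenicillin, amphotericin B and FuDr, an inhibitor of DNA synthesis added as a 0.6 mM solution, and both had been fed again on day 5. The labels give no dose of RIF. The tissue field speaks of control RNAi on DMSO arrays and of idr-1 RNAi on RIF arrays, and it was set aside because titles, design text and paper all give the 2 treatments instead. RNA came from many whole worms at once, so that a lower value from fewer cells of a type and one from less RNA per cell cannot be told apart.

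Worms lack circulating immune cells and adaptive immunity, and their barrier tissues secrete small peptides against microbes. The epidermis makes the glycine-rich nlp-29 group and the caenacins (cnc), which are induced by fungal infection or wounding. The nlp-29 group is switched on there through a p38 MAP kinase route with PMK-1 and the STAT-like factor STA-2, and cnc-2 through the TGF-β ligand DBL-1. The fip genes are named for induction by fungus and the fipr genes for relatedness to them, the abf genes encode defensin-like antibacterial factors, and the thn genes encode members of the thaumatin family, which are larger proteins.

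None of these genes changed past the study's threshold with RIF. With a call defined as an unadjusted p under 0.05 in limma and at least a 2-fold change, 0 of 40 were higher and 0 were lower with RIF, where 1.14% of all 22548 probe sets were called higher and 1.53% lower. These counts rested on the arrays used, since some genes passed with 1 array left out. Without DMSO replicate 2 these were cnc-2 (log2 difference 2.31), fipr-2 (2.19), nlp-26 (1.75) and nlp-31 (1.63). They were abf-4 (1.19) without RIF replicate 2 and cnc-6 (-1.73) without DMSO replicate 1. Such fits leave 1 array in a group, and the share of all probe sets passing in them was not taken. The median log2 difference, RIF minus DMSO, was 0.03 over the 40 genes and 0.03 over all probe sets, and 23 genes had a positive and 17 a negative difference, from -0.73 for cnc-3 to 1.34 for fipr-2. Centring each array on its ribosomal protein probe sets lowers every difference by 0.16, so that positive values smaller than this change sign under that scaling. An unadjusted p under 0.05 was reached by 2 of the genes in limma, cnc-3 and cnc-5, and by 1, abf-2, in the methods' t-test, against 8.47% of all probe sets in limma. The smallest adjusted p among the 40 was 0.550 from limma with Benjamini-Hochberg adjustment over all probe sets. Both RIF arrays lay above both DMSO arrays for 9 genes, or 22.5%, against 22.2% of all probe sets. They lay below for 1 gene, cnc-3, where 15.7% of all probe sets did so, and the groups overlapped for the other 30.

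**Figure D1:**
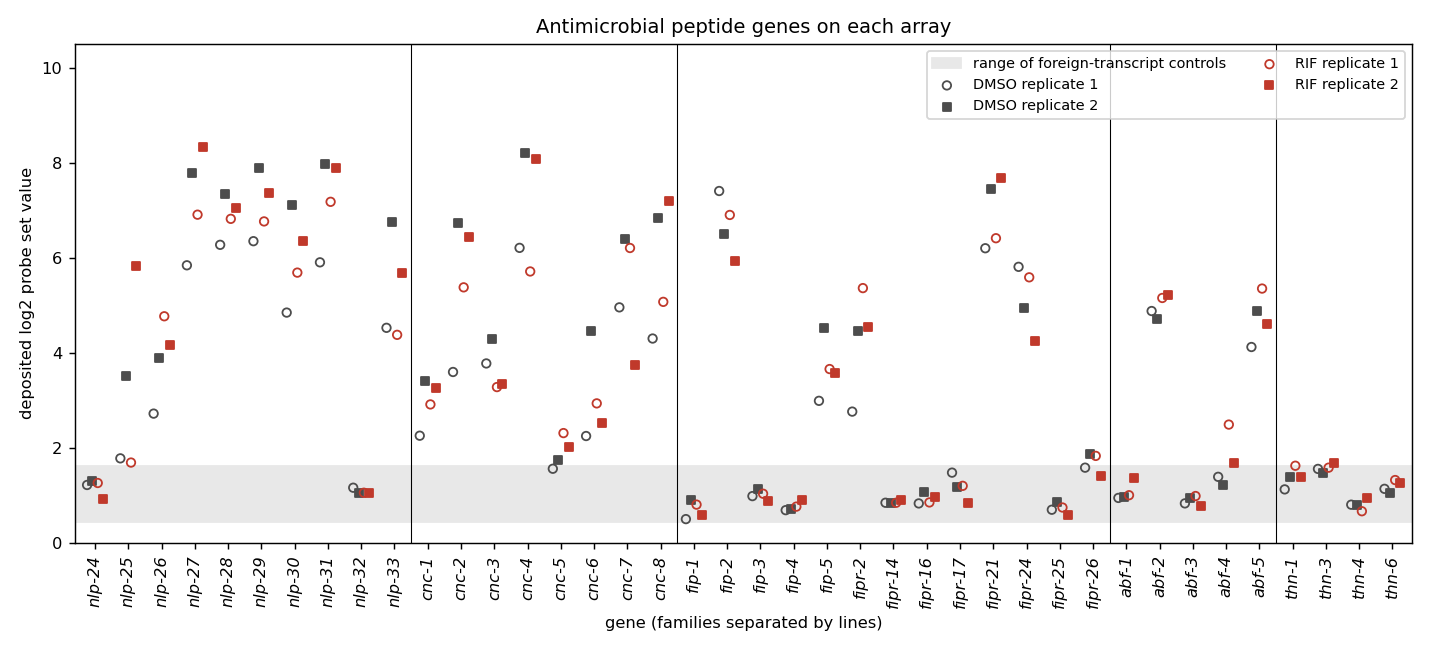
Deposited log2 value (vertical axis) of each of the 40 genes (horizontal axis) on each array, with circles for replicate 1 and squares for replicate 2, grey for DMSO and red for RIF. The shaded band is the range of control probe sets for transcripts foreign to the worm, 0.44 to 1.62, and 14 genes have both group means within it, while the squares of most nlp and several cnc genes stand clear of the circles of the same colour.

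Part of the list was at background. The array carries 8 probe sets for yeast and bacterial transcripts, which read 0.44 to 1.62 over the 4 arrays, and 26 of the 40 genes had a group mean above this range. The other 14, with both group means inside it, were nlp-24, nlp-32, fip-1, fip-3, fip-4, fipr-14, fipr-16, fipr-17, fipr-25, abf-1, abf-3, thn-1, thn-4 and thn-6. Their differences ran from -0.30 for fipr-17 to 0.25 for thn-1, and a value of this kind says that the transcript was not measured above background, not that it is absent.

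Of the 10 nlp genes, 8 were above background. Their median difference was 0.36, with 6 positive and 2 negative values, and RIF lay above DMSO for nlp-26 alone. nlp-29, the best known marker of the epidermal response, read 6.35 and 7.89 with DMSO and 6.76 and 7.36 with RIF. The RIF values thus fell between those of the DMSO arrays, and the group means differed by -0.06 (standard error 0.59), with a 95% interval from 0.311-fold to 2.97-fold. Neither a 2-fold rise nor a 2-fold fall was outside that interval.

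For the neighbours of nlp-29 on chromosome V, too, the difference between treatments was within the spread of arrays. nlp-31 read 5.90 and 7.97 with DMSO and 7.18 and 7.89 with RIF (log2 difference 0.60, standard error 0.77, adjusted p = 0.887 from limma). nlp-27 read 5.84 and 7.78 with DMSO and 6.91 and 8.32 with RIF (0.81, standard error 0.85, adjusted p = 0.851 from limma). For both genes the groups overlapped, with DMSO replicate 1 the lowest of the 4 arrays. nlp-28 and nlp-30 had differences of 0.12 and 0.03. nlp-33, which lies elsewhere on the chromosome, had a difference of -0.61, with values of 4.52 and 6.75 for DMSO and 4.38 and 5.67 for RIF.

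A pair of nlp genes differed by more than 2-fold without passing the test. nlp-26 read 2.72 and 3.88 with DMSO and 4.77 and 4.17 with RIF, so that both RIF arrays were above both DMSO arrays. Its mean was 3.30 ± 0.82 (SD, n = 2) with DMSO and 4.47 ± 0.42 (SD, n = 2) with RIF, a 2.25-fold difference with a 95% interval of -0.14 to 2.48 on the log2 scale (adjusted p = 0.628 from limma). The call for nlp-26 depended on the setting, since its unadjusted p was 0.0682 in limma as run and 0.0471 in limma with an intensity trend and a robust prior. nlp-25, separated from nlp-26 by 1 gene, read 1.78 and 3.50 with DMSO and 1.69 and 5.83 with RIF. Its 2.17-fold difference rested on RIF replicate 2 alone, with a log2 difference of -0.95 without it and 1.12 with it (standard error 1.57, adjusted p = 0.897 from limma). The remaining genes, nlp-24 and nlp-32, were at background, with differences of -0.17 and -0.05.

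The caenacins were all above background and were divided in direction, with 4 positive and 4 negative differences and a median of -0.025. cnc-2, the gene known as the DBL-1 target, read 3.59 and 6.74 with DMSO and 5.38 and 6.44 with RIF. Both RIF values lay between the DMSO values, which were 3.14 apart on the log2 scale (log2 difference 0.74, standard error 1.16, adjusted p = 0.909 from limma). cnc-4 read 6.21 and 8.20 with DMSO and 5.71 and 8.09 with RIF (-0.31, standard error 1.09, adjusted p = 0.971 from limma). cnc-8 read 4.30 and 6.84 with DMSO and 5.07 and 7.20 with RIF (0.57, standard error 1.16, adjusted p = 0.935 from limma). In both genes each group held a low and a high array, and the distance between the arrays of a group was several times the difference between the groups.

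Small but tighter differences were seen for 2 caenacins. cnc-3 read 3.77 and 4.30 with DMSO and 3.28 and 3.34 with RIF, so that both RIF arrays were lower. The mean went from 4.03 ± 0.37 (SD, n = 2) to 3.31 ± 0.05 (SD, n = 2), to 0.605 of the DMSO level (log2 difference -0.73, standard error 0.23, unadjusted p = 0.0321 and adjusted p = 0.550 from limma), which is less than a 2-fold change. cnc-5 read 1.56 and 1.75 with DMSO and 2.31 and 2.02 with RIF, a 1.43-fold difference (0.51, standard error 0.18, unadjusted p = 0.0457 and adjusted p = 0.581 from limma), with DMSO values at the edge of background. Neither cnc-3 nor cnc-5 kept an unadjusted p under 0.05 in every setting. It was 0.11 and 0.0959 in the methods' t-test, and 0.0754 for both in limma with an intensity trend and a robust prior. Among the remaining caenacins, cnc-1 had a difference of 0.26, cnc-6 of -0.62 and cnc-7 of -0.71. The value of cnc-6 rested on DMSO replicate 2, which read 4.45 where the other 3 arrays read 2.25 to 2.93. For cnc-7, the RIF arrays read 6.20 and 3.73, within and below the range of the DMSO arrays, 4.95 and 6.40, and a second probe set gave a difference of -0.78.

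**Figure D2:**
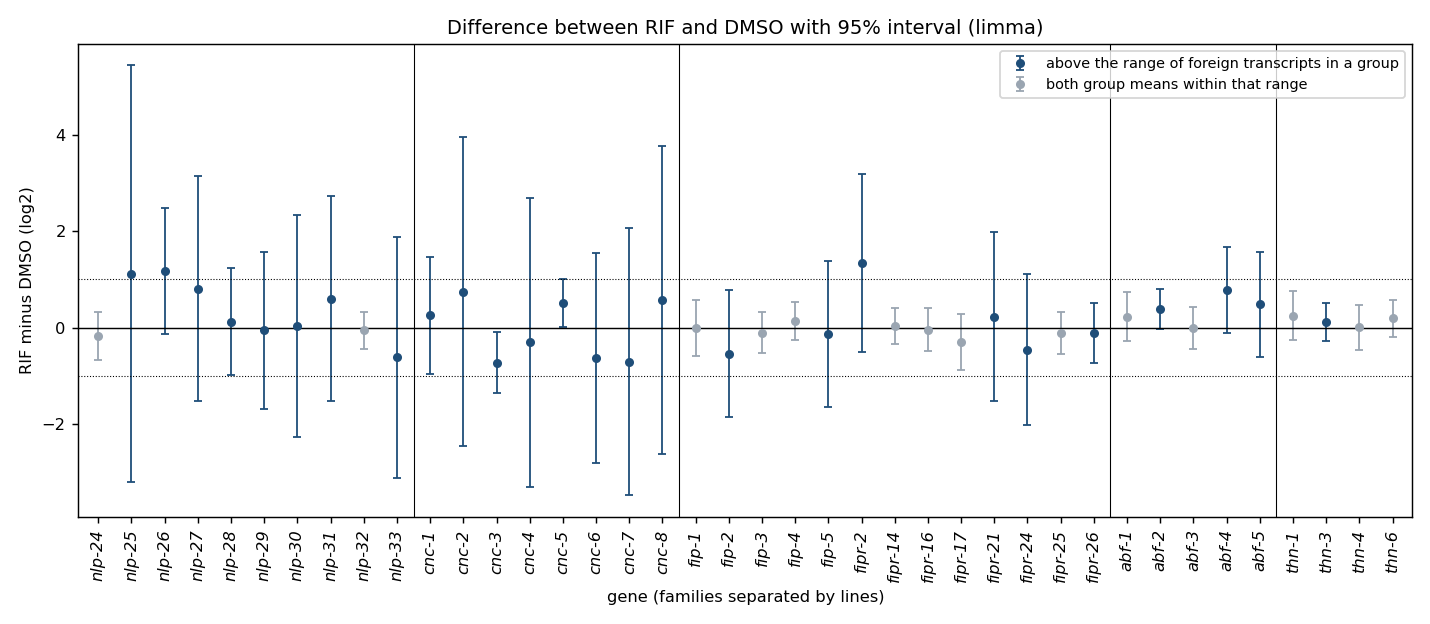
RIF minus DMSO difference in log2 value (vertical axis) for each of the 40 genes (horizontal axis), as points with 95% intervals from limma, with dotted lines at a 2-fold change in either direction. Genes at background (grey) have short intervals, whereas those of 23 genes above background (blue) reach a 2-fold change, and among those the intervals of 6 reach 4-fold both higher and lower.

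Of the 13 fip and fipr genes, 6 were above background. fipr-2 had the largest difference among all 40 genes with the 4 arrays together, with values of 2.76 and 4.46 for DMSO and 5.36 and 4.54 for RIF. The RIF arrays were both higher, replicate 2 only slightly so, and the 2.53-fold difference had a 95% interval from 0.706-fold to 9.09-fold (log2 difference 1.34, standard error 0.67, adjusted p = 0.669 from limma). It was 0.49 without DMSO replicate 1 and 2.19 without DMSO replicate 2. fip-2 read 7.40 and 6.51 with DMSO and 6.90 and 5.93 with RIF (-0.54, standard error 0.48, adjusted p = 0.812 from limma), and -0.67 on a second probe set. fipr-21 read 6.20 and 7.45 with DMSO and 6.41 and 7.69 with RIF (0.22, standard error 0.64, adjusted p = 0.959 from limma). The groups overlapped for both genes. fipr-24, fip-5 and fipr-26 had differences of -0.46, -0.13 and -0.11, and those at background, fip-1, fip-3, fip-4, fipr-14, fipr-16, fipr-17 and fipr-25, lay between -0.30 and 0.13.

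The 5 abf genes all had differences above 0, abf-3 not so with either centring of the arrays, and with a median of 0.39 none of them was called. abf-2, whose peptide is known to kill bacteria in vitro, read 4.88 and 4.72 with DMSO and 5.15 and 5.22 with RIF. Both RIF arrays were higher by a small margin, with means 1.31-fold apart (log2 difference 0.39, standard error 0.15, unadjusted p = 0.0573 and adjusted p = 0.606 from limma). Its interval, -0.02 to 0.80, excluded a 2-fold change in either direction, as did that of 2 other genes above background, fipr-26 and thn-3. Those 2 lay at the edge of background, with means of 1.72 and 1.51 with DMSO and 1.61 and 1.63 with RIF. For them the interval limits the signal and not the transcript. abf-5 read 4.12 and 4.88 with DMSO and 5.35 and 4.61 with RIF (0.48, standard error 0.39, adjusted p = 0.797 from limma), with overlapping groups. abf-4 read 1.39 and 1.20 with DMSO, within background, and 2.49 and 1.67 with RIF (0.78, standard error 0.32, adjusted p = 0.633 from limma). abf-1 and abf-3 were at background, with differences of 0.23 and 0.001.

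The thn genes were at or near background. thn-3, listed as a pseudogene in the RefSeq table, read 1.55 and 1.47 with DMSO and 1.58 and 1.69 with RIF (0.12, standard error 0.14, adjusted p = 0.872 from limma). thn-1 read 1.12 and 1.38 with DMSO and 1.62 and 1.38 with RIF (0.25, standard error 0.18, adjusted p = 0.769 from limma), and thn-4 and thn-6 had differences of 0.01 and 0.19. All 4 intervals excluded a 2-fold change, but on probe sets that read at or near background this limits the signal and not the transcript.

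For many of these genes the arrays of the same treatment lay far apart. Over the 26 genes above background, the DMSO arrays were at least 2-fold apart for 17, or 65.4%, against 13.3% of the 12812 probe sets above background. The RIF arrays were at least 2-fold apart for 9, or 34.6%, against 5.57%. The residual SD, the spread of arrays around their group mean, had a median of 0.81 over these genes and 0.29 over the probe sets above background. By family, it was 1.14 for the nlp genes, 1.28 for the caenacins, 0.78 for the fip and fipr genes and 0.42 for the abf genes. These shares describe the arrays at hand and carry no test, since many of the genes are neighbours and 20 of the 40 are read by probe sets whose endings mark probes shared with other transcripts.

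All 8 nlp genes above background were at least 2-fold apart between the DMSO arrays, as were 6 of the 8 caenacins, and in each of these 14 genes DMSO replicate 2 was the higher array. The gap was 3.14 on the log2 scale for cnc-2, 2.54 for cnc-8, 2.28 for nlp-30 and 2.23 for nlp-33. Between the RIF arrays the gap reached 4.14 for nlp-25, 2.38 for cnc-4 and 2.13 for cnc-8, again with replicate 2 higher, and -2.47 for cnc-7, where it was lower. The array numbered 2 was the higher in both treatments for 13 of the 26 genes above background, or 50.0%, against 27.5% of probe sets above background, and the lower in both for 3, fip-2, fipr-24 and abf-4, or 11.5% against 23.0%. No label ties the number to a shared batch or day.

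**Figure D3:**
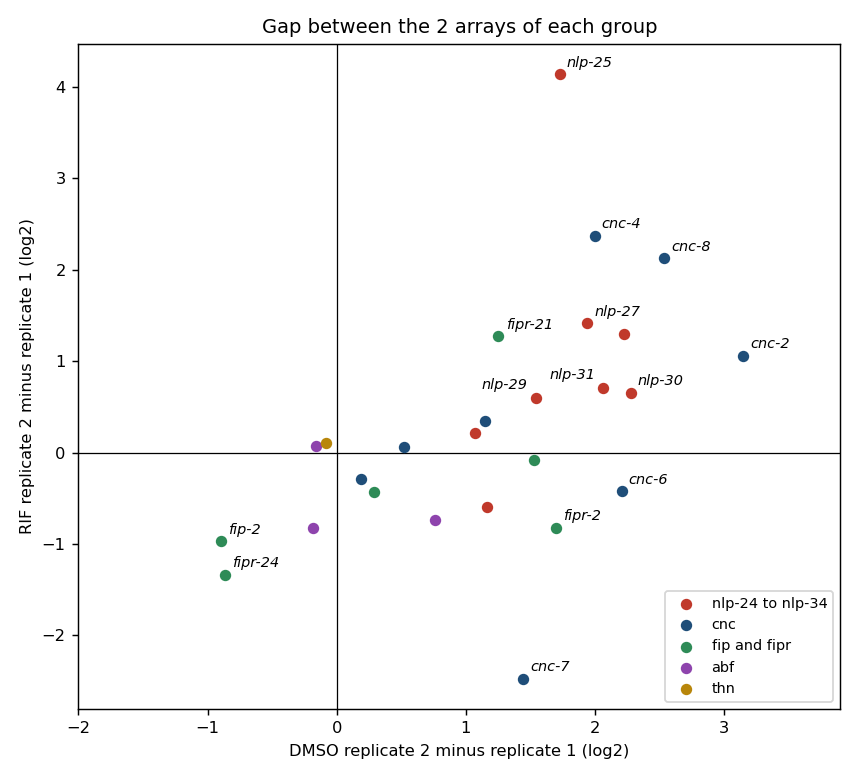
Replicate 2 minus replicate 1 in log2 value within the DMSO arrays (horizontal axis) and within the RIF arrays (vertical axis), with 1 point for each of the 26 genes above background, coloured by family. Most nlp genes (red) and caenacins (blue) lie to the upper right, with cnc-2 at 3.14 on the horizontal and nlp-25 at 4.14 on the vertical axis, while fip-2 and fipr-24 lie to the lower left.

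In runs of adjoining genes that were all above background, the gaps mostly had the same direction. In the order of the RefSeq table (assembly WBcel235), nlp-31, nlp-30, nlp-29, nlp-28 and nlp-27 follow each other on chromosome V with no other gene between them. For all 5 the array numbered 2 was higher in both treatments, with gaps of 1.07 to 2.28 between the DMSO arrays, and all 5 are read by shared-probe sets. cnc-1, cnc-5, cnc-4, cnc-3 and cnc-2 also form an unbroken run on chromosome V. The array numbered 2 was again higher in both treatments for 4 of these 5, cnc-5 being the exception. Shared-probe sets read cnc-1, cnc-2 and cnc-3, but not cnc-4 and cnc-5. On the X chromosome, fip-5, fipr-21 and cnc-8 adjoin one another, and the same held for fipr-21 and cnc-8. Of these, fip-5 and fipr-21 are read by shared-probe sets and cnc-8 is not. Adjoining pairs with a gene at background did not share a direction in both treatments. For abf-2 and abf-1 the gaps were -0.16 and 0.02 with DMSO, and 0.07 and 0.37 with RIF. Those of fip-3 and fipr-16 were 0.15 and 0.24 with DMSO, and -0.16 and 0.12 with RIF. thn-1 and thn-3 went opposite ways in both, with 0.26 and -0.08 for DMSO and -0.24 and 0.11 for RIF. fip-2 and fipr-24, on chromosomes V and I, went the other way, with replicate 2 lower by 0.90 and 0.86 with DMSO and by 0.97 and 1.33 with RIF.

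The wide gaps had values of RNA quality and of tissue markers beside them. For 4 worm transcripts probed at both ends (actin, catalase, Gapdh and ubiquitin), the median 5′ minus 3′ difference, lower in more degraded RNA, was -1.68 and -3.19 on DMSO replicates 1 and 2 and -2.39 and -2.37 on RIF replicates 1 and 2. The lowest value thus fell on DMSO replicate 2, where 14 of the 16 nlp and cnc genes above background were at least 2-fold higher than on replicate 1, whereas the RIF arrays were alike in it. Of 10 epidermal and cuticle markers, 9 were above background, bli-1 not, and the summed linear level, which the bright collagen probe sets col-119 and col-140 dominate, was 4774 and 2480 with DMSO and 1633 and 966.6 with RIF. The median log2 level of these markers was instead higher on DMSO replicate 2, at 4.83 against 4.20, and lower on RIF replicate 2, at 2.78 against 3.67, and 4 of the 10 were lower on the array numbered 2 in both treatments. The part of these values in the peptide genes' spread was not tested.

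Those epidermal markers also differed between treatments. The adult cuticle collagens col-19 (log2 difference -3.77, adjusted p = 0.489 from limma) and col-140 (-3.40, adjusted p = 0.377 from limma) were called lower. They were 2 of 10 markers, where 1.53% of all probe sets were called lower. The list's median was -0.39, with 9 of 10 differences negative. For 5 of 10, both RIF arrays lay below both DMSO arrays, against 15.7% of all probe sets. The 8 markers not called ran from the collagens col-119 (-1.21) and dpy-7 (-0.95) to lin-26, a transcription factor of epidermal fate (-0.29), and the junction proteins ajm-1 (-0.05) and dlg-1 (0.38). Of 6 body wall muscle markers, unc-15 (-1.93), unc-54 (-1.87) and myo-3 (-1.20) were called lower, against 1.53% of all probe sets. Their adjusted p from limma was 0.246, 0.531 and 0.457. The median of the 6 was -0.76, with 5 negative differences and 1 positive. For 5 of them both RIF arrays lay below both DMSO arrays, against 15.7% of all probe sets. Of 8 intestinal markers, vha-6 was called lower (-1.23, adjusted p = 0.563 from limma), against the same 1.53%, and none higher. However, 6 were positive, the median was 0.44, and 5 had both RIF arrays above both DMSO arrays, against 22.2% of all probe sets. None of 6 pharyngeal, 8 neuronal, 6 germ line and 3 coelomocyte markers was called. All 8 neuronal markers had both RIF arrays above both DMSO arrays, against 22.2% of all probe sets, with a median of 0.66, while all 6 germ line markers were negative, with a median of -0.55, and 4 had both RIF arrays below, against 15.7%. Whether a change in tissue makeup bears on the peptide genes was not tested.

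Listed genes of the p38 and DBL-1 routes, with genes related to them, were likewise not called. Of 19 genes of the epidermal p38 route, 18 were measured, all but nsy-1, and none was higher or lower at the study's threshold, with a median of 0.15. The kinase pmk-1 had a difference of 0.08, the adaptor tir-1 of -0.03, the pseudokinase nipi-3 of 0.24, the GATA factor elt-3 of 0.03 and the transporter snf-12, which acts with STA-2, of 0.10. sta-2 had both means within background, with a difference of 0.56. The largest difference of the route was that of sek-1, the MAP kinase kinase above PMK-1, which read 4.40 and 4.70 with DMSO and 5.08 and 5.69 with RIF (0.83, standard error 0.28, unadjusted p = 0.0378 and adjusted p = 0.563 from limma), under 2-fold.

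Of 10 genes of the DBL-1 route, all measured, none was called either, and the median was 0.20. The ligand gene dbl-1 had a difference of -0.03 and the Smad gene sma-3 of 0.17. The largest was that of sma-9, a zinc finger partner of the Smads, which read 5.26 and 5.62 with DMSO and 6.72 and 6.09 with RIF (0.97, standard error 0.28, unadjusted p = 0.0262 and adjusted p = 0.534 from limma), just under 2-fold. None of 7 genes of neuropeptide processing and secretion was called, with a median of 0.17. Over the p38 route, 8 of 18 genes had both RIF arrays above both DMSO arrays, as had 4 of 10 of the DBL-1 route and 5 of 7 of neuropeptide processing, against 22.2% of all probe sets. Of the last 7 genes, egl-3 and egl-21 are also among the neuronal markers.

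The precision of the peptide genes bounds what these arrays can show. The 95% intervals of 23 of the 40 genes reached a 2-fold change in at least 1 direction, with 10 reaching 4-fold higher and 9 reaching 4-fold lower. With 2 arrays per treatment, a 2-fold rise or fall was therefore not excluded for much of the nlp and cnc families. The absence of a call does not show that RIF left these genes unchanged.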

How the data were processed

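The authors deposited a log2 value per probe set and array. According to the submitters' notes these come from Affymetrix Expression Console with RMA, while the methods in the paper give GeneSpring GX. Of 22625 probe sets, 77 controls were left out. The other 22548 were compared as deposited, RIF minus DMSO and two-sided, using lmFit and eBayes of limma 3.58.1 under R 4.3.3, with no intensity trend and no filter on level (2.11 prior degrees of freedom). A gene was called at a difference of 2-fold or more with an unadjusted p under 0.05. This follows the threshold in the paper, which does not say whether its p was adjusted. The Benjamini-Hochberg adjustment of p ran over all 22548. The platform annotation names 1 gene for 20766 probe sets, several for 887 and none for 895. Of the 40 genes, 39 matched the RefSeq table by gene ID and all 40 by symbol. A probe set was called above background if a group mean exceeded the highest of the 8 foreign-transcript controls. Levels were not compared between genes, since probe sets differ in brightness, and the summed level of a marker list is weighted by its brightest probe sets.

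The members and lists were chosen with earlier results of these data known. Values on each array are given for genes past 2-fold, for the 2 per family with the highest mean, and for others named after their values were seen. Alternatives were leaving out each array, a block for the replicate number, another test or prior, other scalings, filters and thresholds. The number of arrays limits the precision, and p-values measure only the spread between these arrays. The procedure was tested on simulated data. No peptide or promoter sequence was analysed here.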

Additional observations from a re-analysis of the deposited data

How the results depend on the processing

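No gene was called higher under the methods' t-test, quantile normalization, either centring, an adjusted p under 0.05 or a 1.5-fold threshold. The count of higher genes was 1 with an intensity trend and a robust prior (nlp-26), 1 with only probe sets of a mean above the foreign-transcript range (nlp-26, 25 genes tested), and 1 with probe sets that name several genes counted as well (cnc-11 with R09B5.11, an alternative chosen after seeing the data). With 1 array left out it was 0 to 4, with cnc-2, fipr-2, nlp-26 and nlp-31 without DMSO replicate 2 and abf-4 without RIF replicate 2. The count of lower genes was 1 at 1.5-fold (cnc-3), and with 1 array left out cnc-6 passed without DMSO replicate 1 (-1.73). The lone array is then assumed to vary like the other group. Differences changed sign with the array left out, from -0.95 to 3.19 for nlp-25, -0.16 to 1.77 for nlp-27, -0.83 to 0.71 for nlp-29, -0.43 to 1.63 for nlp-31, -0.83 to 2.31 for cnc-2, -1.49 to 0.88 for cnc-4, -0.70 to 1.84 for cnc-8 and -0.41 to 0.86 for fipr-21. Ribosomal centring moved all differences by -0.16, which gave -0.037 for thn-3 and a median of -0.13 over the 40 genes, and median centring moved them by -0.06. The median over the 40 genes was -0.16 to 0.34 with 1 array left out.

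With the replicate number as a replicate block, 0 genes were called higher and 0 lower, as without it. An unadjusted p under 0.05 was then reached by nlp-27, fip-2, cnc-3 and abf-4, with a smallest adjusted p of 0.558 from limma, and 684 probe sets were called over the whole array. The gaps between the arrays numbered 1 and 2 had a correlation of 0.10 across all probe sets and 0.52 across the 26 genes above background, which are not independent. With 2 numbers the labels do not settle whether they pair the arrays.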

Other observations

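Probe sets that name several genes lie outside the 40, and 8 of them include a gene of these families. The 1 that names the caenacin cnc-11 together with its neighbour R09B5.11 was the only one of the 48 that passed the study's threshold, and it was singled out for its values. Over all 22548 probe sets, 1.14% were called higher and 1.53% lower. So 1 call in 48 is no more than the share called in the 2 directions together, though above the share called higher alone. This probe set read 3.55 and 4.31 with DMSO and 5.91 and 5.52 with RIF, with both RIF arrays higher, as for 22.2% of all probe sets. The mean went from 3.93 ± 0.53 (SD, n = 2) to 5.72 ± 0.27 (SD, n = 2), a 3.46-fold difference (log2 difference 1.79, standard error 0.33, 95% interval 0.89 to 2.68, adjusted p = 0.416 from limma). Which of the 2 genes the signal came from cannot be told apart on this array. The difference was 1.41 to 2.17 with 1 array left out. Its unadjusted p was 0.00492 in limma, 0.0519 in the methods' t-test and 0.0501 without RIF replicate 1, so the call was lost in both of the latter.

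The other several-gene probe sets did not pass. thn-1 with thn-2 read 6.62 and 6.51 with DMSO and 6.48 and 6.41 with RIF, a log2 difference of -0.12 with a 95% interval of -0.51 to 0.28, which excluded a 2-fold change. This probe set was well above background, whereas the one that names thn-1 alone was not. fipr-22 with fipr-23 gave -0.56 and -0.69 on 2 probe sets, and on both the array numbered 2 was at least 2-fold lower in each treatment, as fipr-24 and fip-2 were lower there. thn-7 with thn-5 gave -0.02.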
